A study of Mus musculus with 3 samples.

Results

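Bladder macrophages and dendritic cells were examined as the 399 cells, of 16821 that passed filtering, with a high share of mononuclear phagocyte transcripts. A member had at least 500 detected genes and at most 20% mitochondrial UMIs (unique molecular identifiers, each counting 1 captured RNA molecule). It also had at least 5 UMIs of Lyz2, Csf1r, Cd68, C1qa, C1qb, C1qc, Cd209a and Fcer1g together, making up at least 0.2% of its UMIs, and no UMI of Cd79a, Cd3e or Cd3d, which mark B and T cells. Members with 3 or more UMIs of C1qa, C1qb and C1qc are called C1q-positive, and those with none C1q-negative. Both groups were therefore chosen by measured values, and differences between them are descriptions. The cells came from 3 droplet 3' RNA libraries of mouse bladder urothelium, 1 from Lpar6 knockout, 1 from Cab39l knockout and 1 from wild-type mice, each made of the pooled cells of 15 mice. Strain, sex and age are not given in the labels, nor is the part of each gene that was deleted. Cells were freed by trypsin injected into the bladder, passed through a strainer that held back clumps and tissue pieces, and cleared of red cells on a Ficoll gradient. Because animals were pooled and each genotype has 1 library, differences between genotypes could not be checked against replicates, and none was tested. Intervals in brackets are exact 95% binomial intervals for shares and exact 95% Poisson or conditional binomial intervals for levels and their ratios, and they cover counting error only.

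C1q is the recognition molecule of the classical complement pathway, assembled from 3 chains encoded by C1qa, C1qb and C1qc, which lie side by side in the mouse genome. Most complement proteins come from the liver, but C1q is made mainly by tissue macrophages, and it tags dying cells and immune complexes for uptake. Monocytes, which circulate in blood and enter tissues, and conventional dendritic cells, which carry antigen to T cells on MHC class II molecules, make little of it. The C1q genes lay on chromosome 4, minus strand, with C1qa at 136895917 to 136898803, C1qb at 136880129 to 136886187 and C1qc at 136889804 to 136893065 (mm10, GENCODE vM21). The promoter windows of C1qb and C1qc are shown because these genes define the split. Those of H2-Aa and H2-Eb1 are shown because the C1q split of their summed UMIs had opposite signs in the wild type and the knockouts. Each window holds 300 bases around the transcription start, 5′ to 3′ on the gene's strand, from RefSeq on GRCm38.p6, matched by gene symbol, and 4 windows are printed. Capitals mark matches on either strand to GAGGAA, the core of PU.1-type sites, or TGCTGA, part of the site of MAF factors, in the C1q windows and to TGATTGG, the Y box with its flank, in the MHC class II windows.
C1qb, chr4:136886151-136886450, minus strand: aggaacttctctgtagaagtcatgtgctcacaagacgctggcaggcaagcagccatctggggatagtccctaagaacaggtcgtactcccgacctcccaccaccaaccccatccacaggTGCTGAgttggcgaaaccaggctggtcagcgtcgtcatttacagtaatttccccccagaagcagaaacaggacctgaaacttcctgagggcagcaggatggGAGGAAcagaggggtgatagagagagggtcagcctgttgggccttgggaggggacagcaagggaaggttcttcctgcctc
C1qc, chr4:136892865-136893164, minus strand: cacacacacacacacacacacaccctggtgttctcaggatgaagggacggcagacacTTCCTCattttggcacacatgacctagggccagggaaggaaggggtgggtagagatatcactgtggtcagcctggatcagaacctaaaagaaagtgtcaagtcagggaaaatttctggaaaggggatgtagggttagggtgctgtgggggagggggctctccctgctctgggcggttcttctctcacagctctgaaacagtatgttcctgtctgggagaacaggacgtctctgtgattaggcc
H2-Aa, chr17:34287774-34288073, minus strand: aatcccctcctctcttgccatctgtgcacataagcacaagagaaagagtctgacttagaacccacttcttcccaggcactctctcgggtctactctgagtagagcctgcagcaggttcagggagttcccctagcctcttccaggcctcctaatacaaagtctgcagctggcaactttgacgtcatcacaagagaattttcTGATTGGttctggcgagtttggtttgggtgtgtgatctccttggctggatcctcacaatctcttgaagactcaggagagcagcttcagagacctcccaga
H2-Eb1, chr17:34305617-34305916, plus strand: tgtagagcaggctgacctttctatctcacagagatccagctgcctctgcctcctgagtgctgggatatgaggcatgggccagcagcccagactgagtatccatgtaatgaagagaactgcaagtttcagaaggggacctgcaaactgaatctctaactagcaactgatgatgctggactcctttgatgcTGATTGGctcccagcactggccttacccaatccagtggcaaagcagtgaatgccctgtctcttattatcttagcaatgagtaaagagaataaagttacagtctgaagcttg
In the C1qb window TGCTGA began 131 bases and GAGGAA 30 bases before the start, and the C1qc window held GAGGAA once, on the opposite strand, 193 bases before it. TGATTGG began 50 bases before the start of H2-Aa and 61 bases before that of H2-Eb1. Of 32851 mouse promoter windows of this length, 28.3% held GAGGAA, 19.5% TGCTGA and 7.82% TGATTGG on either strand, so the C1q letters are common and the matches are descriptions only.

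The targeted genes were read first. Lpar6, a receptor for lysophosphatidic acid, had 0 UMIs in the 41 Lpar6 knockout members, with an interval of 0 to 21.2 CPM. CPM are UMI counts of the summed cells scaled to a common total of 1e6. Lpar6 had 11 UMIs (22.2 CPM) in Cab39l knockout members and 63 UMIs (42.3 CPM) in wild-type members. Over each whole library it was at 0 CPM in the Lpar6 knockout, 12.2 CPM in the Cab39l knockout and 15.2 CPM in the wild type. Cab39l, which encodes a scaffold of the LKB1 kinase complex, had 13 UMIs (74.6 CPM) in Lpar6 knockout members, 11 UMIs (22.2 CPM, 11.1 to 39.7) in Cab39l knockout members and 56 UMIs (37.6 CPM, 28.4 to 48.9) in wild-type members. Within C1q-positive members the Cab39l counts ran against the label, with 11 UMIs (30.4 CPM) in the Cab39l knockout and 1 UMI (6.88 CPM) in the wild type. Over the whole library Cab39l was at 32.6 CPM in the Cab39l knockout and 110 CPM in the wild type. Cab39l tags from 3' ends outside a deleted part could still be counted, and the labels do not place the deletion.

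Members were 0.702% of passing cells in the Lpar6 knockout library (41 of 5838, 0.504 to 0.952%), 1.01% in the Cab39l knockout library (67 of 6657, 0.781 to 1.28%) and 6.73% in the wild-type library (291 of 4326, 6.0 to 7.51%). Nearly the whole of this gap lay in C1q-negative cells. They were 0.428% of passing Lpar6 knockout cells (25 cells, 0.277 to 0.632%), 0.361% of passing Cab39l knockout cells (24 cells, 0.231 to 0.536%) and 5.92% of passing wild-type cells (256 cells, 5.23 to 6.66%). C1q-positive cells were 0.274% (16 cells, 0.157 to 0.445%), 0.616% (41 cells, 0.442 to 0.835%) and 0.578% (25 cells, 0.374 to 0.852%) of Lpar6 knockout, Cab39l knockout and wild-type cells. The Lpar6 knockout and Cab39l knockout intervals overlap only from 0.442 to 0.445%, and overlap does not show that shares are alike. C1q-positive cells thus made up 39.0% of Lpar6 knockout members (24.2 to 55.5%), 61.2% of Cab39l knockout members (48.5 to 72.9%) and 8.59% of wild-type members (5.64 to 12.4%). With every member cut at random to 1600 UMIs, the shares were 27.3% in the Lpar6 knockout, 53.2% in the Cab39l knockout and 6.42% in the wild type, and 8, 5 and 26 shallower cells in the Lpar6 knockout, Cab39l knockout and wild-type libraries were set aside. B cells by the same passing filters were 0.531, 1.91 and 4.44% of Lpar6 knockout, Cab39l knockout and wild-type cells, and T cells were 0.0514, 0.15 and 3.21% of Lpar6 knockout, Cab39l knockout and wild-type cells. Lymphocyte shares were thus also highest in the wild-type library, and with 1 pooled library each, genotype and the yield of immune cells from the tissue cannot be told apart.

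**Figure D1:**
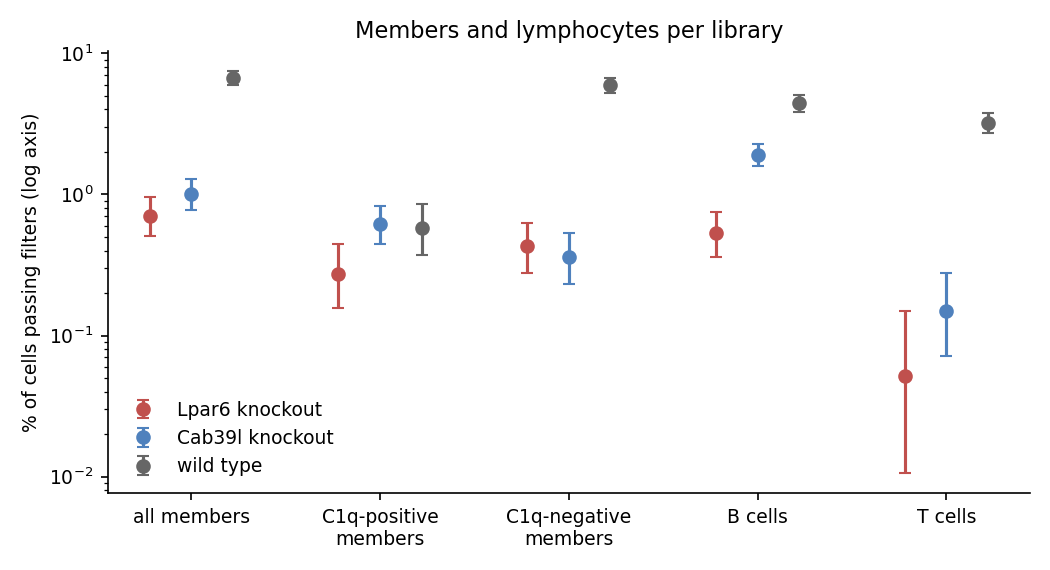
Share of passing cells (percent, log axis) that were members, C1q-positive members, C1q-negative members, B cells and T cells in the Lpar6 knockout, Cab39l knockout and wild-type libraries, with exact 95% binomial intervals as bars. C1q-positive shares lie between 0.274 and 0.616%, while C1q-negative shares are 0.428 and 0.361% in the knockouts and 5.92% in the wild type.

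The C1q cut left few cells near it. C1q-positive cells had a median of 15.5 C1q UMIs (3 to 172) in the Lpar6 knockout, 96 (3 to 233) in the Cab39l knockout and 28 (3 to 190) in the wild type. Only 1 Lpar6 knockout, 3 Cab39l knockout and 3 wild-type cells sat at exactly 3 C1q UMIs, and 0 Lpar6 knockout, 2 Cab39l knockout and 10 wild-type members with 1 or 2 belong to neither group. A C1q UMI was seen in 0 of 31 Lpar6 knockout, 2 of 127 Cab39l knockout and 1 of 192 wild-type B cells and in no T cell. It was seen in 0.356% of Lpar6 knockout, 1.25% of Cab39l knockout and 0.677% of wild-type cells with a urothelial signature, which were several times deeper (medians of 25606, 26796 and 21155 UMIs in the Lpar6 knockout, Cab39l knockout and wild-type libraries). At the membership edge, 0 Lpar6 knockout, 3 Cab39l knockout and 6 wild-type members had exactly 5 UMIs of the rule's genes, while 1 Lpar6 knockout, 2 Cab39l knockout and 2 wild-type cells had exactly 4 and were left out. Another 0 Lpar6 knockout, 1 Cab39l knockout and 8 wild-type cells met every condition except that they held a UMI of Cd79a, Cd3e or Cd3d. Median depth was 4208, 8871 and 5358 UMIs in Lpar6 knockout, Cab39l knockout and wild-type C1q-positive cells and 2387, 3997 and 4610.5 UMIs in Lpar6 knockout, Cab39l knockout and wild-type C1q-negative cells. Library pairs shared 18, 19 and 16 barcodes, none with the same counts. No shared barcode was a member in both libraries of a pair, and 2 barcodes shared by the Lpar6 knockout and the wild type were a member in 1 of them. One Lpar6 knockout cell of 40203 UMIs held 40.6% of all UMIs of its C1q-positive group, so values of that group are also given without it where it matters.

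The genes of the rule differ between the groups by construction and are given as levels in CPM of each group. C1qa stood at 2881, 3708 and 2974 CPM in Lpar6 knockout, Cab39l knockout and wild-type C1q-positive cells, C1qb at 3164, 4140 and 3497 CPM in the cells of these libraries, and C1qc at 2234, 2355 and 1604 CPM in them. Lyz2, the lysozyme of myeloid cells, was at 13675, 31412 and 17588 CPM in Lpar6 knockout, Cab39l knockout and wild-type C1q-positive cells and 8108, 7244 and 20780 CPM in Lpar6 knockout, Cab39l knockout and wild-type C1q-negative cells. Csf1r, the receptor for the growth factor that keeps macrophages alive, was at 495, 410 and 413 CPM in Lpar6 knockout, Cab39l knockout and wild-type C1q-positive cells and 253, 91.4 and 271 CPM in Lpar6 knockout, Cab39l knockout and wild-type C1q-negative cells. Fcer1g, a signalling chain of Fc receptors that NK cells share, was at 1223, 1381 and 2334 CPM in Lpar6 knockout, Cab39l knockout and wild-type C1q-positive cells and 2393, 1859 and 2449 CPM in Lpar6 knockout, Cab39l knockout and wild-type C1q-negative cells. Cd209a, a lectin of monocyte-related dendritic cells, was at 50.5, 5.53 and 6.88 CPM in Lpar6 knockout, Cab39l knockout and wild-type C1q-positive cells and 133, 373 and 117 CPM in Lpar6 knockout, Cab39l knockout and wild-type C1q-negative cells.

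The label was set beside marker lists, counting a cell for a list when at least 5 UMIs of the list made up at least 0.2% of its UMIs. The macrophage list holds 5 genes of the membership rule (the C1q genes, Csf1r and Cd68). The list for Cd209a-type dendritic cells holds 1, Cd209a. Counts for these lists are therefore no independent check of the label. Of the 82 C1q-positive cells, 77 carried the macrophage list, 14 in the Lpar6 knockout, 39 in the Cab39l knockout and 24 in the wild type. The macrophage list was also met by 134 of 305 C1q-negative cells (7 of 25 in the Lpar6 knockout, 6 of 24 in the Cab39l knockout and 121 of 256 in the wild type), 119 of which met the monocyte list too. No C1q-positive cell carried the NK list. The C1q-negative cells were mixed. The monocyte list (Ly6c2, Ccr2, Chil3, Plac8 and others) was met by 16 Lpar6 knockout, 6 Cab39l knockout and 159 wild-type cells, 181 of 305 in all. The NK list was met by 6 Lpar6 knockout, 10 Cab39l knockout and 36 wild-type cells (52), and the neutrophil list by no knockout and 37 wild-type cells. NK-list cells had entered through Fcer1g: summed over libraries they held 3174 CPM of Fcer1g and 18158 CPM of Gzma, the granzyme of killer cells, but 24.7 CPM of Lyz2. Neutrophil-list cells held 96490 CPM of S100a9, an abundant granulocyte protein, and 9026 CPM of Lyz2. Gzma and S100a9 belong to the lists that chose these cells, so their levels are no separate check. A urothelial signature was met by 13 Lpar6 knockout, 23 Cab39l knockout and 11 wild-type C1q-positive cells and by 22 Lpar6 knockout, 20 Cab39l knockout and 130 wild-type C1q-negative cells. Summed over 13 urothelial genes the level was 7722, 4134 and 3208 CPM in Lpar6 knockout, Cab39l knockout and wild-type C1q-positive cells and 4479, 5736 and 3494 CPM in Lpar6 knockout, Cab39l knockout and wild-type C1q-negative cells, and the part of this epithelial RNA in the differences below was not tested.

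Dendritic markers were carried by few members. The list for conventional type 1 dendritic cells was met by 4 Lpar6 knockout, 3 Cab39l knockout and 8 wild-type C1q-negative cells, and that for the Cd209a type (cDC2) by 1 Lpar6 knockout, 5 Cab39l knockout and 27 wild-type cells, of which 14 also met the NK list. Without Cd7 and Klrd1, which NK cells share, the cDC2 list was met by 0 Lpar6 knockout, 3 Cab39l knockout and 6 wild-type cells, a reduction chosen after the values were seen. The list for migratory dendritic cells was met by no member, and that for plasmacytoid dendritic cells by 1 C1q-negative cell, in the wild type. With NK, neutrophil and mast cell lists set aside, 19 Lpar6 knockout, 14 Cab39l knockout and 182 wild-type C1q-negative cells were left. Of these, 14 Lpar6 knockout, 5 Cab39l knockout and 148 wild-type cells carried the monocyte list, and 3 Lpar6 knockout, 5 Cab39l knockout and 19 wild-type cells either conventional dendritic list. The 27 dendritic-list cells held 22035 CPM of Cd74, 7223 CPM of H2-Aa, 818 CPM of Cd209a and 1895 CPM of Lyz2, and the 9 of the type 1 list held 368 CPM of Clec9a and 184 CPM of Xcr1. Cd209a, Clec9a and Xcr1 belong to the lists that chose these cells, so their levels are no separate check. The monocyte list was thus met by 16 of 25 Lpar6 knockout and 159 of 256 wild-type C1q-negative cells but by 6 of 24 in the Cab39l knockout, fewer than the 10 of the NK list there. Dendritic lists were met by a minority in each library, and the cells are called C1q-negative members here.

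**Figure D2:**
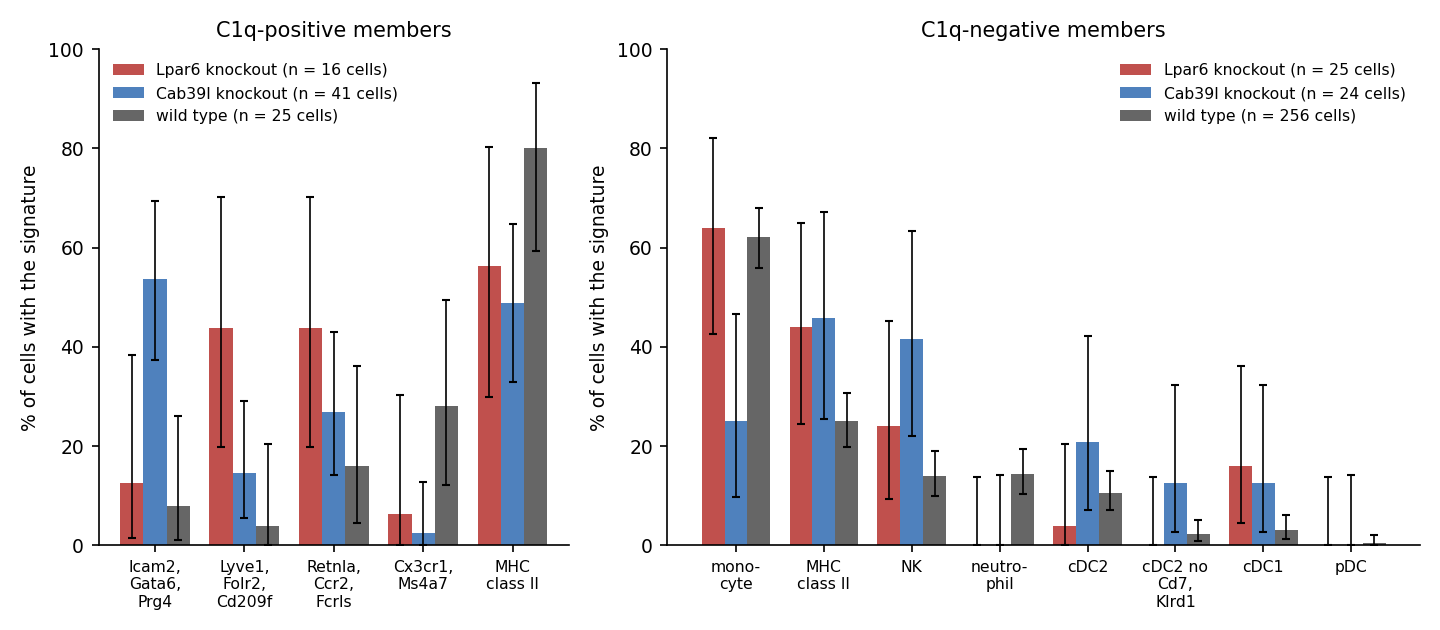
Percent of C1q-positive members (left) and C1q-negative members (right) that carry each gene set or marker-list signature, by library, with exact 95% binomial intervals. The 4 gene sets at the left were chosen after values were seen, cDC1 and cDC2 are types of conventional and pDC plasmacytoid dendritic cells, and the monocyte list was met by 181 of 305 C1q-negative cells.

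Between C1q-positive and C1q-negative members, 3069 genes had enough UMIs to be compared, and 82 were at least 2-fold higher in C1q-positive cells in every library (2.67% of genes compared) and 63 at least 2-fold lower in every library (2.05%). Folds are on the scale of log2(CPM + 10), and the median gene stood at -0.12. The split used these cells' own C1q counts, so nothing is read from these numbers. The higher genes included resident macrophage and complement genes. Pf4, a platelet-type chemokine that macrophages also make, was at 2325, 2186 and 675 CPM in Lpar6 knockout, Cab39l knockout and wild-type C1q-positive cells and at 0 in every C1q-negative group. C4b, a complement component that acts just after C1q in the cascade, was at 495, 847 and 399 CPM in Lpar6 knockout, Cab39l knockout and wild-type C1q-positive cells and at 0 in every C1q-negative group. Fcna, a lectin that starts the complement cascade by another route, was at 900, 526 and 145 CPM in Lpar6 knockout, Cab39l knockout and wild-type C1q-positive cells and at 0, 0 and 0.778 CPM in Lpar6 knockout, Cab39l knockout and wild-type C1q-negative cells. The C1q-positive side was thus the higher one in each library, with the wild-type level lowest for all of Pf4, C4b and Fcna. Much of the Lpar6 knockout Pf4 came from 1 cell, as given with the gene sets below.

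Retnla, a secreted protein of alternatively activated macrophages, had the highest mean log2 fold, 7.57, with 6560, 6096 and 5865 CPM in Lpar6 knockout, Cab39l knockout and wild-type C1q-positive cells and 0, 160 and 10.1 CPM in Lpar6 knockout, Cab39l knockout and wild-type C1q-negative cells. It was present in 9 of 16 Lpar6 knockout, 16 of 41 Cab39l knockout and 3 of 25 wild-type C1q-positive cells, and the cell richest in it held 71.6% of its UMIs in the Lpar6 knockout, 27.5% in the Cab39l knockout and 52.5% in the wild type. Slpi, a protease inhibitor of mucosal surfaces, was at 5225, 5883 and 6085 CPM in Lpar6 knockout, Cab39l knockout and wild-type C1q-positive cells and 0, 22.9 and 421 CPM in Lpar6 knockout, Cab39l knockout and wild-type C1q-negative cells. Saa3, an acute-phase protein, was at 1193, 3512 and 1604 CPM in Lpar6 knockout, Cab39l knockout and wild-type C1q-positive cells and 0, 0 and 48.2 CPM in Lpar6 knockout, Cab39l knockout and wild-type C1q-negative cells. In the Lpar6 knockout and the wild type these last levels came almost wholly from 1 cell each, which held 89.6% (Lpar6 knockout) and 96.6% (wild type) of Slpi UMIs and 94.9% (Lpar6 knockout) and 99.1% (wild type) of Saa3 UMIs.

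Other genes among the highest were Prg4 (mean log2 6.74), the joint lubricant proteoglycan, Cxcl13 (6.64), a chemokine that attracts B cells, and Alox15 (5.90), a lipoxygenase. Cd5l (4.73), a secreted macrophage survival factor, Vsig4 (4.60), a complement receptor, and Ccl24 (4.46), a chemokine for eosinophils, completed the first 12. Vsig4, for example, was at 505, 338 and 68.8 CPM in Lpar6 knockout, Cab39l knockout and wild-type C1q-positive cells and at 0 in every C1q-negative group.

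Of the resident macrophage list, 6 of 8 genes compared were higher in C1q-positive cells in every library and none lower, with a median log2 of 2.91, or 2.58 with genes at 0 set to the level that 3 counts give. Lyve1, a hyaluronan receptor of vessel-side macrophages, was at 354, 30.4 and 34.4 CPM in Lpar6 knockout, Cab39l knockout and wild-type C1q-positive cells, and Folr2, a folate receptor, at 495, 83.0 and 96.4 CPM in the cells of these libraries. Both were at 0 in every C1q-negative group. Selenop, a selenium carrier, was at 1708, 396 and 633 CPM in Lpar6 knockout, Cab39l knockout and wild-type C1q-positive cells and 160, 137 and 142 CPM in Lpar6 knockout, Cab39l knockout and wild-type C1q-negative cells. Of 8 macrophage-list genes compared, 4 were higher in every library, Adgre1 and Trem2 among them.

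Of complement genes other than C1q, 4 of 6 compared were higher in every library (C4b, Cfp and C3ar1 among them) with a median log2 of 2.17. Cfp, or properdin, which stabilises the alternative pathway, was at 627, 1209 and 427 CPM in Lpar6 knockout, Cab39l knockout and wild-type C1q-positive cells and 39.9, 198 and 152 CPM in Lpar6 knockout, Cab39l knockout and wild-type C1q-negative cells. C3ar1, the receptor of the C3a fragment, was at 162, 108 and 145 CPM in Lpar6 knockout, Cab39l knockout and wild-type C1q-positive cells and 0, 0 and 2.33 CPM in Lpar6 knockout, Cab39l knockout and wild-type C1q-negative cells. Lipid-handling genes were higher in 4 of 9 cases (Apoe, Abca1, Lpl and Pltp). Apoe, the lipid carrier that macrophages secrete, was at 11007, 17210 and 14181 CPM in Lpar6 knockout, Cab39l knockout and wild-type C1q-positive cells and 598, 640 and 1878 CPM in Lpar6 knockout, Cab39l knockout and wild-type C1q-negative cells. Of 11 Fc and scavenger receptors, Msr1, Cd36 and Trem2 were higher. Of 19 lysosomal genes, Ctsb, Lgmn and Cd63 were higher, with a list median of 0.84. Ctsb, a lysosomal protease, was at 1435, 955 and 1397 CPM in Lpar6 knockout, Cab39l knockout and wild-type C1q-positive cells and 585, 183 and 558 CPM in Lpar6 knockout, Cab39l knockout and wild-type C1q-negative cells. Of 12 chemokines, Ccl8, Ccl24 and Pf4 were higher and Ccl5 lower. Immediate early genes (16 compared, median -0.17), interferon response genes (8, median -0.41) and urothelial genes (10, median -0.01) had no gene that passed 2-fold the same way in every library. The same held for 3 Toll-like receptor genes, 3 cytokine genes and 8 signalling adaptors compared, while Blvrb, a haem-degrading reductase, was higher among 5 iron and haem genes. No gene of the cell cycle or LPA receptor lists had enough UMIs.

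The lowest genes were mostly those of NK cells, with all 8 compared NK-list genes lower in every library (median log2 -4.66, or -3.81 with genes at 0 set to the level of 3 counts). Gzma was at 0, 0 and 6.88 CPM in Lpar6 knockout, Cab39l knockout and wild-type C1q-positive cells and 3230, 4570 and 1635 CPM in Lpar6 knockout, Cab39l knockout and wild-type C1q-negative cells. Ccl5, a chemokine of killer lymphocytes, was at 20.2, 0 and 0 CPM in Lpar6 knockout, Cab39l knockout and wild-type C1q-positive cells and 2698, 3603 and 1754 CPM in Lpar6 knockout, Cab39l knockout and wild-type C1q-negative cells. Nkg7, Gzmb, Prf1, Ncr1, Klrd1, Klrb1c, Klre1 and Ptprcap were also among the lowest 12. Of C1q-negative cells, 6 of 25 in the Lpar6 knockout, 10 of 24 in the Cab39l knockout and 36 of 256 in the wild type met the NK list. With NK, neutrophil and mast-cell lists set aside, 3040 genes were compared. Of these, 27 were lower and 18 of them were among the 63, while 82 were higher and 73 of them were among the 82.

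Monocyte genes were lower too, in 5 of 10 genes compared (Ly6c2, Plac8, Ms4a4c, Ace and Spn). Plac8, abundant in Ly6C-high monocytes, was at 0, 11.1 and 496 CPM in Lpar6 knockout, Cab39l knockout and wild-type C1q-positive cells and 1023, 411 and 2382 CPM in Lpar6 knockout, Cab39l knockout and wild-type C1q-negative cells. Ly6c2, the surface protein that names these monocytes, was at 0, 0 and 165 CPM in Lpar6 knockout, Cab39l knockout and wild-type C1q-positive cells and 346, 190 and 595 CPM in Lpar6 knockout, Cab39l knockout and wild-type C1q-negative cells. Wild-type C1q-positive cells thus held the highest level of both genes among the C1q-positive groups. Plac8 and Ly6c2 were also among the 27 lower genes with the other lineages set aside.

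**Figure D3:**
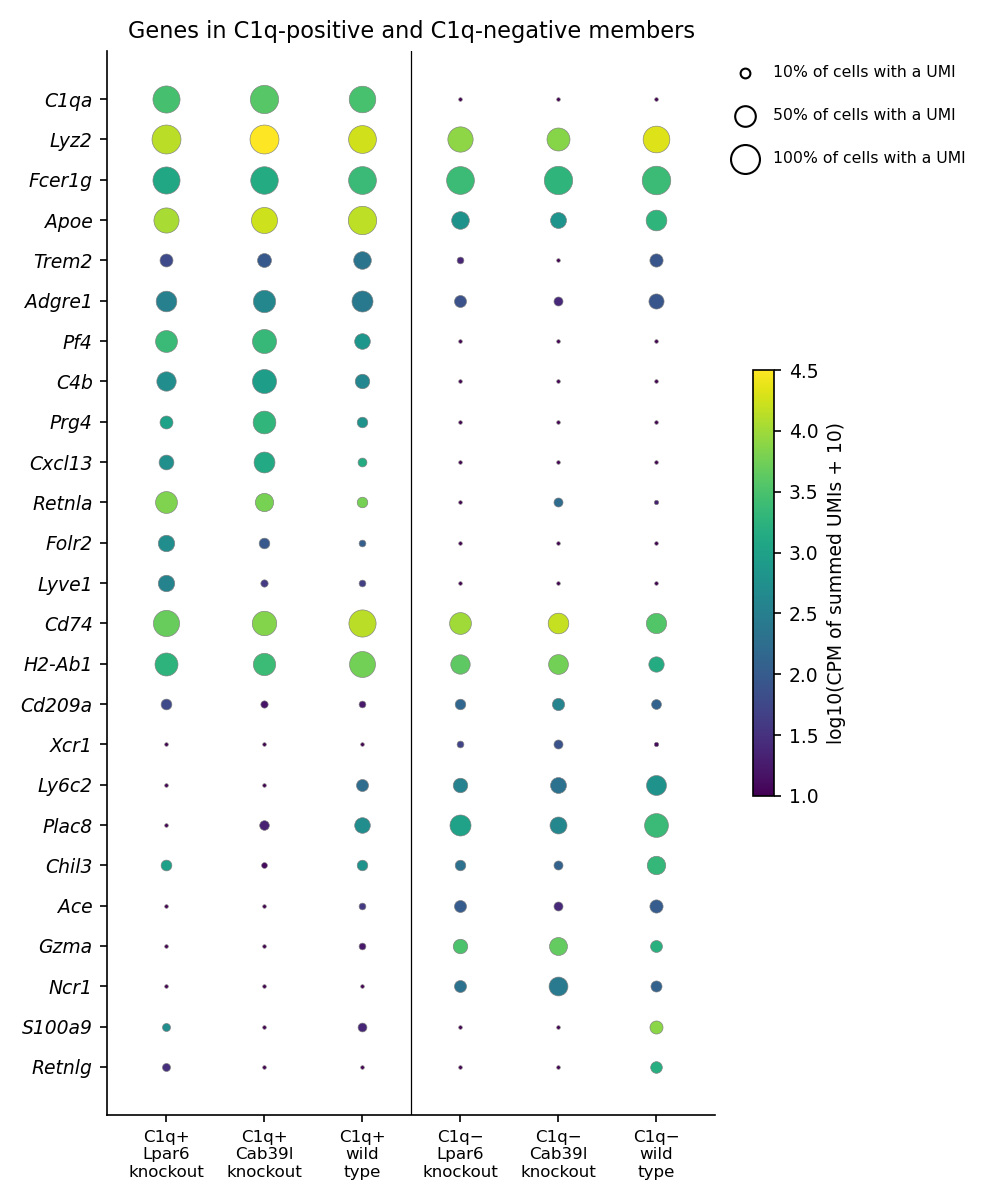
Levels (colour, log10 of CPM + 10) and percent of cells with a UMI (dot area) of 25 genes in C1q-positive (C1q+) and C1q-negative (C1q−) members of each library, where the smallest dots are groups with no UMI. Pf4, C4b and Prg4 had no UMI in any C1q-negative group, and Gzma was at 0, 0 and 6.88 CPM in Lpar6 knockout, Cab39l knockout and wild-type C1q-positive cells.

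C1q-positive cells were not alike. Several short gene sets, chosen after values were seen and so given with no test, were each met by some of the 82 cells, with 7 cells shared by the Lyve1 and the Retnla set and at most 1 by any other pair. A set around Gata6, Icam2, Prg4 and Alox15, genes known from the large macrophages of the mouse peritoneal cavity, was met by 2 Lpar6 knockout, 22 Cab39l knockout and 2 wild-type cells. A set around Lyve1, Folr2 and Cd209f was met by 7 Lpar6 knockout, 6 Cab39l knockout and 1 wild-type cells, and a set around Retnla, Ccr2 and Fcrls by 7 Lpar6 knockout, 11 Cab39l knockout and 4 wild-type cells. A set around Cx3cr1 and Ms4a7 was met by 1 Lpar6 knockout, 1 Cab39l knockout and 7 wild-type cells. The other 4 Lpar6 knockout, 5 Cab39l knockout and 12 wild-type cells met none. Cab39l knockout C1q-positive cells were therefore mostly of the Gata6 set, while 12 of 25 wild-type cells met no set. The Retnla set was not confined to C1q-positive cells. It was also met by 2 Lpar6 knockout, 5 Cab39l knockout and 23 wild-type C1q-negative cells, 30 of 305 in all. Of C1q-negative cells, 1 met the Cx3cr1 set and 0 the Gata6 or Lyve1 set. The 4 Lpar6 knockout cells of no set held 47976 of the 98940 UMIs of their C1q-positive group. Their Pf4, at 2605 CPM, came from 1 cell.

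Genes that these sets do not hold differed among them, and since the sets hold few cells per library, levels are given by library where 1 library decides them. Lyz2 was at 44662 CPM in the Gata6 set, 21273 CPM in the Lyve1 set and 19202 CPM in the Retnla set over all libraries. In the Cx3cr1 set it was at 3442 CPM in the 1 Lpar6 knockout cell, 37899 CPM in the 1 Cab39l knockout cell and 4943 CPM in the 7 wild-type cells. Apoe in the Cx3cr1 set was at 0 in the Lpar6 knockout cell, 213652 CPM in the Cab39l knockout cell and 33155 CPM in the wild-type cells. Among wild-type cells alone Apoe stood at 10361 CPM in the Gata6 set, 11503 CPM in the 1 cell of the Lyve1 set and 7443 CPM in the Retnla set, all below the Cx3cr1 set. Slpi in the Gata6 set was at 37340 CPM in the 2 Lpar6 knockout cells, 9420 CPM in the 22 Cab39l knockout cells and 51222 CPM in the 2 wild-type cells. Saa3 in the Gata6 set was at 8394 CPM in Lpar6 knockout, 6563 CPM in Cab39l knockout and 13562 CPM in wild-type cells, and over all libraries it was at 5.75 CPM (1 cell) in the Retnla set and 0 in the Cx3cr1 set. Both genes were thus higher in the Gata6 set than in any of the other sets in each library. Cells of no set held 6431 CPM of Slpi and 865 CPM of Saa3 in the Cab39l knockout. They held 0 of both in the Lpar6 knockout, and 61.3 CPM of Slpi and 0 of Saa3 in the wild type. As given above, nearly all Slpi and Saa3 UMIs of the Lpar6 knockout and the wild type came from 1 cell each. Cd74, the MHC class II chaperone, in the Gata6 set was at 72.4 CPM in Lpar6 knockout, 2470 CPM in Cab39l knockout and 58.2 CPM in wild-type cells. In the Retnla set Cd74 was at 10061 CPM in Lpar6 knockout, 15575 CPM in Cab39l knockout and 22760 CPM in wild-type cells, so the Gata6 set was the lower one in each library.

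MHC class II genes set the genotypes apart within both groups. These genes encode the surface molecules that present peptides to helper T cells, with Cd74 as their chaperone, and H2-Aa, H2-Ab1 and H2-Eb1 lie on chromosome 17 (34282744 to 34287823 minus, 34257689 to 34269419 plus and 34305867 to 34316674 plus). Summed over the list, their level was 10158, 14719 and 30262 CPM in Lpar6 knockout, Cab39l knockout and wild-type C1q-positive cells. It was 21414 CPM in Lpar6 knockout, 31581 CPM in Cab39l knockout and 7620 CPM in wild-type C1q-negative cells. Wild type was thus the highest of the C1q-positive groups and the lowest of the C1q-negative groups. In Lpar6 knockout C1q-positive cells, 1 cell held 40.6% of the list's UMIs.

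Cd74 was at 4851, 7104 and 13630 CPM in Lpar6 knockout, Cab39l knockout and wild-type C1q-positive cells and 10155, 15425 and 3561 CPM in Lpar6 knockout, Cab39l knockout and wild-type C1q-negative cells. Its log2 difference between C1q-positive and C1q-negative cells was -1.06 in the Lpar6 knockout, -1.12 in the Cab39l knockout and 1.93 in the wild type. H2-Ab1 was at 1840, 2408 and 5734 CPM in Lpar6 knockout, Cab39l knockout and wild-type C1q-positive cells and 4280, 5743 and 1366 CPM in Lpar6 knockout, Cab39l knockout and wild-type C1q-negative cells, with log2 differences of -1.21 in the Lpar6 knockout, -1.25 in the Cab39l knockout and 2.06 in the wild type. These signs rest on sums of UMIs over cells of unequal depth. Counting each cell equally gave Cd74 differences of 0.09 in the Lpar6 knockout, -0.54 in the Cab39l knockout and 2.45 in the wild type, so the Lpar6 knockout sign turned. Without the deepest cell of each group they were -0.19 in the Lpar6 knockout, -1.20 in the Cab39l knockout and 2.01 in the wild type, and with other lineages set aside -1.91 in the Lpar6 knockout, -1.53 in the Cab39l knockout and 1.66 in the wild type. From summed UMIs, H2-Aa differences were -1.15, -0.90 and 2.14 in the Lpar6 knockout, Cab39l knockout and wild type, and H2-Eb1 differences -0.63, -1.10 and 2.38. Counting each cell equally gave -0.04 for H2-Aa and 0.83 for H2-Eb1 in the Lpar6 knockout. Without the deepest cells these were -0.32 for H2-Aa and 0.42 for H2-Eb1, so the H2-Eb1 sign turned there both ways.

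Per cell, MHC class II made up a median of 0.524, 0.251 and 3.25% of UMIs in Lpar6 knockout, Cab39l knockout and wild-type C1q-positive cells, and 0.0565, 0.0808 and 0.0374% in Lpar6 knockout, Cab39l knockout and wild-type C1q-negative cells. Cells with at least 1% were 6 of 16 Lpar6 knockout (37.5%), 17 of 41 Cab39l knockout (41.5%) and 17 of 25 wild-type (68.0%) C1q-positive cells. Among C1q-negative cells they were 9 of 25 Lpar6 knockout (36.0%), 9 of 24 Cab39l knockout (37.5%) and 42 of 256 wild-type (16.4%) cells. The shares of the C1q-positive and the C1q-negative group were close in each knockout, while in the wild type the share was higher in the C1q-positive group, although by number its MHC class II-rich cells were 17 C1q-positive and 42 C1q-negative cells. Of all C1q-positive cells, 49 of 82 met the MHC class II list, 20 of 25 in the wild type. By gene set, it was met by 20 of 22 Retnla-set, all 9 Cx3cr1-set, 9 of 14 Lyve1-set and 6 of 26 Gata6-set cells among them. The Retnla set was met by 7 of 16 Lpar6 knockout, 11 of 41 Cab39l knockout and 4 of 25 wild-type C1q-positive cells. The Cx3cr1 set was met by 1 Lpar6 knockout, 1 Cab39l knockout and 7 wild-type cells. By list, 14 of 19 Lpar6 knockout, 5 of 14 Cab39l knockout and 148 of 182 wild-type C1q-negative cells without other lineages met the monocyte list. The mix of cells thus differed between the libraries. In the wild type, where MHC class II of C1q-positive cells was highest, the Cx3cr1 share was highest but the Retnla share lowest. The part of the mix in the level was not tested.

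**Figure D4:**
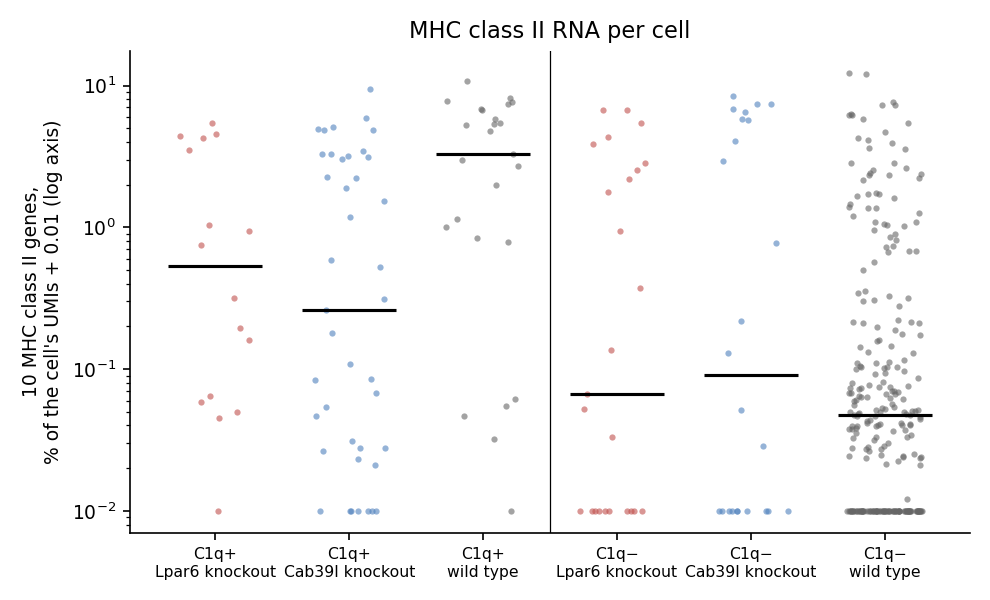
Summed UMIs of 10 MHC class II genes as a percent of each cell's UMIs (plus 0.01, log axis) for every C1q-positive (C1q+) and C1q-negative (C1q−) member of each library, 1 point per cell, with the median as a line. Before 0.01 was added, the medians of C1q-positive cells were 0.524% in the Lpar6 knockout, 0.251% in the Cab39l knockout and 3.25% in the wild type, and those of C1q-negative cells lay between 0.0374 and 0.0808%.

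Each knockout was then set against the wild type within each group, and both comparisons share the same wild-type library. In C1q-positive cells, Lpar6 knockout against wild type, 626 genes had enough UMIs, of which 36 were at least 2-fold higher (5.75%) and 73 at least 2-fold lower (11.7%), with a median log2 of 0.08. Without the deepest cell of each group 60 of 488 genes were past 2-fold, against 109 of 626 with them. The resident macrophage list was higher in 4 of 5 genes compared, with a median log2 of 1.58, and in 3 of 3 without the deepest cell. Folr2 was at 495 CPM in Lpar6 knockout and 96.4 CPM in wild-type cells, a ratio of 5.14 (2.79 to 10.1). Selenop was at 1708 CPM in Lpar6 knockout and 633 CPM in wild-type cells. In these cells 7 of 16 Lpar6 knockout and 1 of 25 wild-type cells met the Lyve1 set.

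Cd209f, a C-type lectin, had 92 UMIs in 4 Lpar6 knockout C1q-positive cells (930 CPM) and none in the wild type, and was at least 45.0-fold higher. The Cab39l knockout had 111 CPM. Ccl8, a monocyte-attracting chemokine, was at 869 CPM in Lpar6 knockout and 20.7 CPM (3 UMIs) in wild-type cells, a ratio of 42.1 (13.9 to 208), but 75.6% of the knockout UMIs came from 1 cell. Vsig4 was at 505 CPM in Lpar6 knockout and 68.8 CPM in wild-type cells, a ratio of 7.34 (3.68 to 16.2). Its log2 difference was 2.71, and 1.83 without the deepest cell of each group. The 4 Lpar6 knockout cells that met no gene set held 667 CPM of Vsig4, all from 1 cell. Sprr2a3, a cornified-envelope gene, was at 515 CPM in Lpar6 knockout and 62.0 CPM in wild-type cells, with 70.6% of knockout UMIs in 1 cell, and the 49 S100a9 UMIs (495 CPM, against 13.8 CPM in wild type) all came from 1 cell. Urothelial genes moved with the deepest cell: 6 of 8 were higher with it and 0 of 2 without it, and their summed level, given above, was highest in this group.

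Among the lowest, Ccl4, an inflammatory chemokine, was at 0 in Lpar6 knockout and 675 CPM in wild-type C1q-positive cells, at least 22.2-fold lower. Plac8 was at 0 in Lpar6 knockout and 496 CPM in wild-type cells, at least 16.3-fold lower. Adgre5, a leukocyte adhesion receptor, was at 50.5 CPM in Lpar6 knockout and 406 CPM in wild-type cells, a ratio of 0.124 (0.0390 to 0.307). Hp, or haptoglobin, was at 40.4 CPM in Lpar6 knockout and 351 CPM in wild-type cells, and Krt15, a basal keratin, at 30.3 CPM in Lpar6 knockout and 385 CPM in wild-type cells, with 76.8% of its wild-type UMIs in 1 cell.

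All 6 compared MHC class II genes were lower in Lpar6 knockout than in wild-type C1q-positive cells (median log2 -1.64), and 4 of 6 without the deepest cell (median -1.06). Immediate early genes, switched on within minutes of a stimulus, were lower in 8 of 9 genes compared (median -1.23), and in 5 of 9 without the deepest cell. Fos was at 273 CPM in Lpar6 knockout and 1384 CPM in wild-type cells, a ratio of 0.197 (0.127 to 0.296). Junb was at 222 CPM in Lpar6 knockout and 1156 CPM in wild-type cells, a ratio of 0.192 (0.117 to 0.301). All 4 compared myeloid transcription factors were lower as well, Spi1 and Cebpb among them. Cebpb, a factor of inflammatory gene expression, was at 253 CPM in Lpar6 knockout and 943 CPM in wild-type cells.

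In C1q-positive cells, Cab39l knockout against wild type, 1235 genes had enough UMIs, of which 77 were at least 2-fold higher (6.23%) and 76 at least 2-fold lower (6.15%), with a median log2 of -0.05. With TMM factors, which scale libraries by their typical genes, the same split was 117 higher and 48 lower. The resident macrophage list was higher in 3 of 6 genes (Timd4, Pf4 and Ccl24). Timd4, a receptor for dying cells, had 61 UMIs (169 CPM) in Cab39l knockout cells and 1 UMI (6.88 CPM) in wild-type cells, a ratio of 24.5 (4.24 to 984). MHC class II was lower in 2 of 6 genes (median -0.96). Of the knockout cells 22 of 41 met the Gata6 set, which holds Timd4 and Tgfb2, against 2 of 25 wild-type cells, and the part of this in the differences was not tested.

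Marco, a scavenger receptor for bacteria, had 118 UMIs in 14 Cab39l knockout cells (327 CPM) and none in the wild type, at least 15.8-fold higher. The Lpar6 knockout had 10.1 CPM. Cxcl2, which attracts neutrophils, was at 1135 CPM in Cab39l knockout and 96.4 CPM in wild-type cells, a ratio of 11.8 (6.94 to 21.7), and was seen in 26 of 41 knockout and 5 of 25 wild-type cells. Tgfb2, a growth factor, was at 183 CPM in Cab39l knockout and 6.88 CPM (1 UMI) in wild-type cells, a ratio of 26.5 (4.60 to 1064). Spink1 (4536 CPM in Cab39l knockout against 48.2 CPM in wild type) and Sbp (2651 CPM in Cab39l knockout against 41.3 CPM in wild type), genes of male accessory glands, ranked highest, but 98.0 and 99.2% of their knockout UMIs came from 1 cell.

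Among the lowest were the monocyte genes Chil3 and Plac8 (2 of 4 monocyte genes compared). Chil3, a secreted lectin of monocytes, was at 2.77 CPM in Cab39l knockout and 571 CPM in wild-type cells, where 1 cell held 75.9% of its UMIs. Plac8 was at 11.1 CPM in Cab39l knockout and 496 CPM in wild-type cells. Ccl4 was at 33.2 CPM in Cab39l knockout and 675 CPM in wild-type cells, a ratio of 0.0492 (0.0246 to 0.0899). Ms4a7, a membrane protein of macrophages, was at 58.1 CPM in Cab39l knockout and 372 CPM in wild-type cells, a ratio of 0.156 (0.0897 to 0.263), and Lst1, a leukocyte-specific transcript, at 44.3 CPM in Cab39l knockout and 330 CPM in wild-type cells, a ratio of 0.134. The wild type was the higher library for each of these genes.

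**Figure D5:**
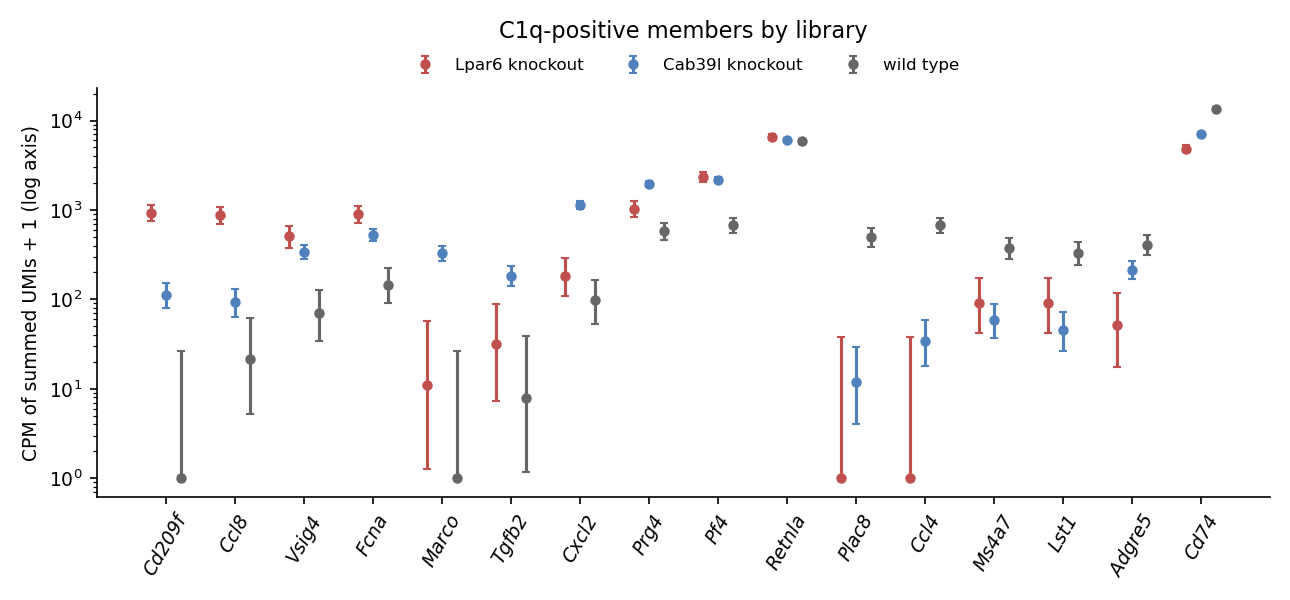
Levels (CPM + 1, log axis) of 16 genes in C1q-positive members of the Lpar6 knockout, Cab39l knockout and wild-type libraries, with exact 95% Poisson intervals. Cd209f is highest in the Lpar6 knockout at 930 CPM, Marco in the Cab39l knockout at 327 CPM and Plac8 in the wild type at 496 CPM.

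In C1q-negative cells, Lpar6 knockout against wild type, 3134 genes had enough UMIs, of which 97 were at least 2-fold higher (3.10%) and 303 at least 2-fold lower (9.67%), with a median log2 of 0.01. With TMM factors the split was 50 higher and 489 lower. In C1q-negative cells, Cab39l knockout against wild type, 89 of 3068 genes were higher (2.90%) and 355 lower (11.6%), with a median of -0.11. All 6 compared neutrophil-list genes were lower in both knockouts. S100a9 was at 0 in both knockouts and 7816 CPM in the wild type, at least 196-fold lower in the Lpar6 knockout and at least 342-fold lower in the Cab39l knockout. S100a8 was at 0 in both knockouts and 4258 CPM in the wild type, at least 107-fold lower in the Lpar6 knockout and at least 186-fold lower in the Cab39l knockout. Retnlg was at 0 in both knockouts and 1550 CPM in the wild type. The 37 neutrophil-list cells were all in the wild-type library, and with other lineages set aside the S100a9 log2 difference was -1.09, that of S100a8 -1.90 and that of Retnlg -0.46 in each knockout. The neutrophil list holds these genes, so setting its cells aside takes out their UMIs by construction.

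Monocyte genes were lower in 4 of 10 genes compared in the Lpar6 knockout and 8 of 10 in the Cab39l knockout. Chil3 was at 186 CPM in Lpar6 knockout, 114 CPM in Cab39l knockout and 2136 CPM in wild-type cells. Vcan, a matrix proteoglycan of classical monocytes, was at 13.3 CPM in Lpar6 knockout, 0 in Cab39l knockout and 175 CPM in wild-type cells. Il1b, the inflammatory cytokine, was at 53.2 CPM in Lpar6 knockout, 83.8 CPM in Cab39l knockout and 520 CPM in wild-type cells, a ratio to wild type of 0.102 (0.0278 to 0.263) in the Lpar6 knockout and 0.161 (0.0800 to 0.290) in the Cab39l knockout. Monocyte-list cells were 16 of 25 in the Lpar6 knockout, 6 of 24 in the Cab39l knockout and 159 of 256 in the wild type. Neutrophil-list cells, in the wild-type library only, held 3672 CPM of Il1b, and with other lineages set aside Il1b was at 64.7 CPM in Lpar6 knockout, 112 CPM in Cab39l knockout and 270 CPM in wild-type cells.

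NK-list genes were higher in 3 of 8 cases in the Lpar6 knockout and 7 of 8 in the Cab39l knockout. Gzma was at 3230 CPM in Lpar6 knockout, 4570 CPM in Cab39l knockout and 1635 CPM in wild-type C1q-negative cells. NK-list cells were 6 of 25 in the Lpar6 knockout, 10 of 24 in the Cab39l knockout and 36 of 256 in the wild type. MHC class II was higher in 6 of 7 genes in the Lpar6 knockout (median log2 1.51) and 5 of 7 in the Cab39l knockout (median 2.05), and in 6 of 7 in both with other lineages set aside (Lpar6 knockout median 1.52, Cab39l knockout median 2.20). The Cd74 ratio to wild type was 2.85 (2.64 to 3.08) in the Lpar6 knockout and 4.33 (4.11 to 4.57) in the Cab39l knockout, whereas in C1q-positive cells it was 0.356 (0.321 to 0.393) for the Lpar6 knockout and 0.521 (0.491 to 0.553) for the Cab39l knockout.

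In Lpar6 knockout C1q-negative cells, 10 of 16 immediate early genes compared were lower (median -1.23). Dusp1, a phosphatase that ends kinase signals, was at 106 CPM in Lpar6 knockout and 584 CPM in wild-type cells, a ratio of 0.182 (0.0783 to 0.361). Egr1 was at 0 in Lpar6 knockout and 156 CPM in wild-type cells, at least 3.92-fold lower. In the Cab39l knockout 2 of these 16 genes were lower and 1 was higher. Interferon response genes were lower in 6 of 9 cases in the Cab39l knockout (Isg15, Irf7, Oasl2 and Zbp1 among them) and 1 of 9 in the Lpar6 knockout. Isg15, a ubiquitin-like protein, was at 15.2 CPM (2 UMIs) in Cab39l knockout and 70.0 CPM in wild-type cells, a ratio of 0.218 (0.0260 to 0.810).

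The highest genes in Lpar6 knockout C1q-negative cells included Fabp4, a fatty-acid carrier, at 213 CPM in Lpar6 knockout and 34.2 CPM in wild-type cells (ratio 6.22, 3.27 to 11.2), Bcl2a1d, a survival factor, at 160 CPM in Lpar6 knockout and 33.4 CPM in wild-type cells, and Ndufaf8, a mitochondrial assembly factor, at 226 CPM in Lpar6 knockout and 50.5 CPM in wild-type cells. Ccl4 was at 1449 CPM in Lpar6 knockout and 279 CPM in wild-type cells, but 74.3% of knockout UMIs came from 1 cell. Ccl4 and Serpinb9, an inhibitor of granzymes (213 CPM in Lpar6 knockout against 44.3 CPM in wild type), turned to the wild-type side with other lineages set aside. In Cab39l knockout C1q-negative cells, Mgl2, a lectin of dendritic cells and macrophages, was at 282 CPM in Cab39l knockout and 28 CPM in wild-type cells, a ratio of 10.1. Ckb, a creatine kinase, was at 488 CPM in Cab39l knockout and 87.1 CPM in wild-type cells (ratio 5.6), and Cd81, a tetraspanin, at 145 CPM in Cab39l knockout and 25.7 CPM in wild-type cells (ratio 5.64). Pltp, a lipid transfer protein, was at 229 CPM in Cab39l knockout and 35 CPM in wild-type cells, and H2-Eb1 at 4471 CPM in Cab39l knockout and 956 CPM in wild-type cells (ratio 4.67). Also at 0 in a knockout were Slpi (421 CPM in wild type, at least 10.6-fold lower in the Lpar6 knockout), Ifitm1 (338 CPM, at least 8.48-fold lower in the Lpar6 knockout and at least 14.8-fold lower in the Cab39l knockout) and Lcn2, a siderophore-binding granule protein (311 CPM, at least 13.6-fold lower in the Cab39l knockout). With other lineages set aside, wild-type levels were 181 CPM for Slpi, 40.4 CPM for Ifitm1 and 20.7 CPM for Lcn2. The wild-type level then lay below what 3 counts give in the Lpar6 knockout for Ifitm1 and in either knockout for Lcn2.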

How the data were processed

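The deposited files hold whole-number UMI counts per gene and cell barcode, made by the authors with Cell Ranger 3.0.2 on mm10, per the submitters' processing notes. The sources used here name no annotation release. Each genotype is 1 library of pooled mice, so samples are single libraries and cells are not replicates. The matrices held 8293, 9406 and 8085 barcodes in the Lpar6 knockout, Cab39l knockout and wild type, of which 5838, 6657 and 4326 had at least 500 genes and at most 20% mitochondrial UMIs. Doublets were kept in the main values. As an alternative the top 6% of cells by Scrublet score (Scanpy 1.11.5) were left out.

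UMIs were summed over the cells of a group, scaled to a common total of 1e6 (CPM) and compared as log2 of CPM + 10. Lpar6 knockout, Cab39l knockout and wild-type C1q-positive groups hold 98940, 361364 and 145267 UMIs and the C1q-negative groups of these libraries 75233, 131280 and 1285993, and these totals set the precision. A gene was compared when it had at least 50 UMIs over the groups and 50 CPM in the higher one, and genes of the membership rule were left out. A value was counted as apart at 2-fold. A fold against 0 UMIs was taken at 3 counts per library. Named genes were the 12 highest and 12 lowest of the C1q split, the 5 highest and 5 lowest of each knockout comparison, and members of 35 gene lists, leaving out predicted, sex-linked, haemoglobin, mitochondrial and ribosomal protein genes. A few further genes were named after their values were seen. A cell carried a list with at least 5 UMIs of it and 0.2% of its UMIs. The members and lists were chosen with earlier results of these data known, and 5 lists and 3 alternatives were chosen after seeing the data. The folds were tested on simulated data. Sequences are from RefSeq and positions from GENCODE vM21. Python 3.11.15, numpy 2.4.6, scipy 1.17.1, pandas 2.3.3 and matplotlib 3.10.9 were used.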

Additional observations from a re-analysis of the deposited data

Results flagged for a closer look

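The difference between C1q-positive and C1q-negative members had opposite signs in different libraries for several named genes, and 3 of them are given here. With 1 library per genotype these contrasts were not tested. Cd74 had a log2 difference of -1.06 in the Lpar6 knockout, -1.12 in the Cab39l knockout and 1.93 in the wild type. With each cell counted equally, the Cd74 difference turned to 0.09 in the Lpar6 knockout. It was then -0.54 in the Cab39l knockout and 2.45 in the wild type. H2-Ab1, a chain of the MHC class II dimer, had differences of -1.21 in the Lpar6 knockout, -1.25 in the Cab39l knockout and 2.06 in the wild type. Counting each cell equally gave H2-Ab1 differences of -0.17 in the Lpar6 knockout, -0.79 in the Cab39l knockout and 2.72 in the wild type.

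Ccl4 had a log2 difference of -7.19 in the Lpar6 knockout, -2.27 in the Cab39l knockout and 1.24 in the wild type. In Lpar6 knockout C1q-negative cells 1 cell held 74.3% of the Ccl4 UMIs. With NK, neutrophil and mast-cell lists set aside, the Ccl4 differences were -1.39 in the Lpar6 knockout, 0.09 in the Cab39l knockout and 4.39 in the wild type.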

How the results depend on the processing

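No paired analysis was possible because each genotype has 1 library. Counts of genes past 2-fold rested on the minimum count, which also sets how many genes are compared. With at least 20 UMIs and no CPM minimum, 323 of 1691 genes were apart in Lpar6 knockout C1q-positive cells (109 of 626 above). In Cab39l knockout C1q-positive cells 443 of 3133 were apart (153 of 1235). In C1q-negative cells 1371 of 6547 were apart in the Lpar6 knockout (400 of 3134) and 1100 of 6682 in the Cab39l knockout (444 of 3068). In the C1q split 112 of 7928 were lower (63 of 3069). Fewer counts per gene were then required. Without the deepest cell of each group 60 of 488 genes were apart in Lpar6 knockout C1q-positive cells. With NK, neutrophil and mast-cell lists set aside, 27 of 3040 genes were lower in the C1q split. Leaving out a library in turn gave 46 of 1667 without the wild type, 78 of 3037 without the Lpar6 knockout and 114 of 3149 without the Cab39l knockout. The wild-type share of members was 5.42% from 200 genes, 9.56% at no more than 10% mitochondrial UMIs and 5.20% from 10 rule UMIs and 0.4%. The C1q-positive share of Cab39l knockout members was 76.9% under that stricter rule and 73.2% with other lineages set aside.

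With other lineages set aside the sign turned for Gzma in the C1q split (0.067), S100a9 in Lpar6 knockout C1q-positive cells (-1.25), and Ccl4 (-0.32) and Serpinb9 (-0.73) in Lpar6 knockout C1q-negative cells. Sbp in the Cab39l knockout turned to -0.73 without the deepest cells and -0.60 without cells of a male gland or erythroid signature. The NK list holds Gzma, the neutrophil list S100a9 and the male gland list Sbp, so setting cells aside by these lists takes out their UMIs by construction. The cause of the other turns was not tested. TMM factors shifted log2 values against wild type by 0.06 and 0.23 (Lpar6 knockout C1q-positive and C1q-negative) and by -0.25 and 0.12 (Cab39l knockout). Of the other named-gene values, 536 moved by less than the spread between libraries or their counting interval, and 66 by more. The count minimum left 626 genes to compare in C1q-positive Lpar6 knockout cells, the fewest of the comparisons with wild type.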

Other observations

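Single cells with transcripts of other tissues were found among C1q-positive members. One Cab39l knockout cell brought the summed level of male accessory gland genes to 7239 CPM in its group, and 1 wild-type cell brought that of erythroid genes to 10677 CPM. In wild-type C1q-positive cells Hbb-bs, a haemoglobin chain, had 1015 UMIs, of which 96.3% were in 1 cell.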
